A study of Mus musculus with 12 samples.

Results

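Of 43248 transcripts that were measured in every library of mouse embryonic stem cells (mESCs), 1727 were depleted in newly transcribed (labeled) RNA relative to total RNA. A transcript was eligible when its exons had a value in all 12 libraries and its mean over the 6 total RNA libraries was at least 20. Members were chosen by their labeled and total values: a transcript was kept when its mean over the 6 labeled libraries was at most 0.6 of its mean over the 6 total libraries and labeled RNA was below total RNA in at least 5 of the 6 pairs of libraries with the same labeling time and replicate number. The file listed 121333 transcripts with exons, and 3.99% of the eligible ones were kept. A mirrored selection, with a labeled/total ratio of at least 1.67 and a ratio above 1 in at least 5 pairs, gave 2020 enriched transcripts for comparison.

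The mESCs were of the XY line DTCM23/49 and grew on gelatin in medium with serum and LIF, a cytokine that keeps them pluripotent. All plates received 200 µM 4-thiouridine (4sU), a uridine analog that cells build into new RNA, for 15, 30 or 60 min. Labeled RNA, which was biotinylated and captured on streptavidin beads, and total RNA of each time were sequenced in 2 replicates each. The replicates came from 1 culture that was divided and passaged separately, and no library came from cells without 4sU, so the p-values below measure the spread within a single divided culture.

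A messenger RNA that is degraded slowly is renewed slowly, so that in a short pulse only a small part of its molecules carries the label, whereas a short-lived RNA consists mostly of labeled molecules. Introns, which are removed and destroyed within minutes, are seen mostly while an RNA is new. Capture depends on the 4sU in a molecule, and a molecule with more uridines has more places where the analog can be built in. The values are relative abundances per length, scaled to the same sum in each library, so that a ratio of 1 does not mean equal amounts of labeled and total RNA.

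No lifetime was measured here, and the named groups did not all follow the textbook order of stability. Transcripts of cytosolic ribosomal proteins, which are regarded as long-lived, had no depleted member among 335 eligible transcripts of 78 genes, and their median labeled/total ratio was 1.09 against 0.927 over all eligible transcripts. None of the 242 transcripts of nuclear-encoded respiratory chain and ATP synthase subunits was kept (median 1.04), nor any of the 222 of mitochondrial ribosomal proteins (median 1.10). At the other end, immediate early genes, whose messengers are known for rapid decay, had ratios of 1.06 to 2.72. None of their 20 eligible transcripts was depleted, which says little where 3.99% of all eligible transcripts were. The selected transcripts are therefore called depleted transcripts here, not long-lived ones.

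The first coding bases of 2 depleted transcripts and of 1 ribosomal protein transcript are shown because they carry the positions where 4sU can be built in, which are the capitals. They were taken by transcript identifier from the GENCODE M1 annotation (genome build NCBIM37), read 5′ to 3′ on the strand of the messenger with T for U, and begin at the start codon.
Ywhaz, chr15:36700525-36724293, minus strand: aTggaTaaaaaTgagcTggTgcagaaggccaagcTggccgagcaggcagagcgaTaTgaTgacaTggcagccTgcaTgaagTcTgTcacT
Tnpo1, chr13:99608974-99696339, minus strand: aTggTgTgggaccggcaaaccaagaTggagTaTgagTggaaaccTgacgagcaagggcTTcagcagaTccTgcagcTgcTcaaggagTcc
Rps24, chr14:25309903-25314654, plus strand: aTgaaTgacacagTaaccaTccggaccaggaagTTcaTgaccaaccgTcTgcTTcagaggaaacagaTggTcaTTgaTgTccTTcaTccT

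These 90-base stretches held 16 U in Ywhaz, 15 in Tnpo1 and 21 in Rps24, so the start of the coding sequence was not where these depleted transcripts were richer in U. Over the whole transcript, U made up 32.2% of the 8453 bases of Tnpo1 and 31.3% of the 4350 bases of Phf6, against 20.9% of the 468 bases of Rps24. Other transcripts with low ratios were no richer in U than Rps24, with 17.8% in a 735-base transcript of Ubap2, 20.2% in a 401-base transcript of Actb and 20.9% in a 531-base transcript of Kif2a. These models of Rps24, Ubap2 and Actb were annotated without a 3′ UTR, whereas that of Phf6 had one of 3038 bases. Whole transcripts were thus not compared alike, and the 1920-base Actb transcript, with a 3′ UTR of 683 bases, held 26.6% U. In Tnpo1 the coding sequence held 26.6% U and the 3′ UTR, 5637 bases long, held 35.2%. Ywhaz had 21.0% U in its coding sequence and 35.3% in its 3′ UTR, and the coding sequence of Rps24 held 19.3%.

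Most depleted transcripts lay close to the limit. Their median labeled/total ratio was 0.557, with quartiles of 0.519 and 0.581, and 306 had a ratio of at most 0.5. Just inside the limit were Pkn2 at 0.599995, Eif4g1 at 0.5999 and Gpi1 at 0.599884, and just outside were Gnas at 0.600032 and the unnamed transcripts ENSMUST00000199640 at 0.600101 and ENSMUST00000195860 at 0.600149. Labeled RNA was below total RNA in all 6 pairs for 1321 of them and in 5 pairs for 406. Every labeled library was below every total library for 1089 of the 1727, a pattern found in 8.1% of all eligible transcripts, and both figures describe the contrast that chose the members. The median of their means over total RNA was 165, against 81.9 over eligible transcripts.

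**Figure D1:**
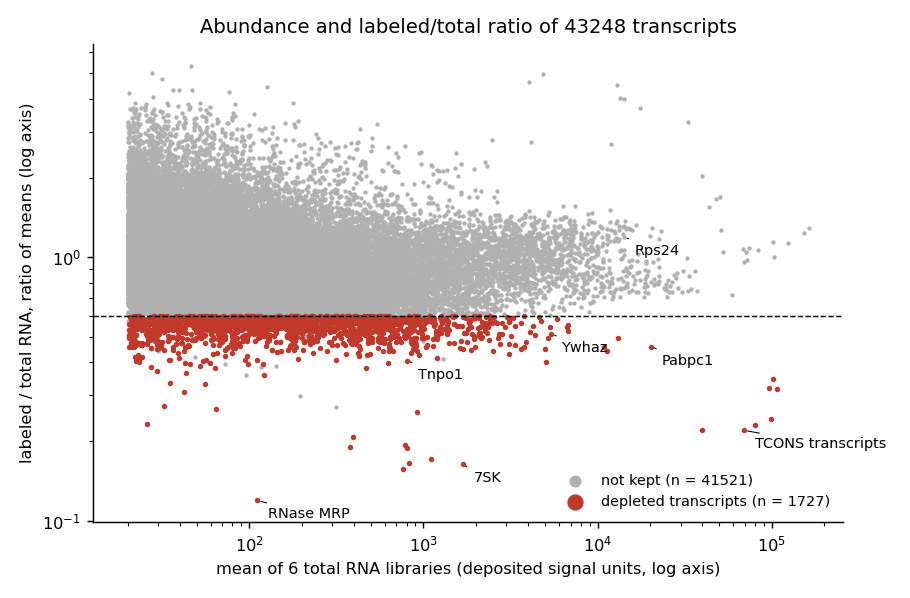
Ratio of the mean labeled to the mean total value against the mean over total RNA, both on log axes, for 43248 transcripts. Red points are the 1727 depleted transcripts and the dashed line is the limit of 0.6. Most red points lie near the line, while 7SK, RNase MRP and the 7 most abundant TCONS transcripts lie well below it.

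Several libraries stood apart. Introns took 6.98% of the signal in labeled RNA at 60 min, replicate 2, and 7.23% in labeled RNA at 15 min, replicate 2, whereas the other labeled libraries had 9.33% to 14.8% and total RNA 6.52% to 7.40%. The median ratio over all eligible transcripts ran from 0.727 in the pair at 60 min, replicate 2, to 1.10 in the pair at 60 min, replicate 1. With the pair at 15 min, replicate 2, left out, 3079 transcripts met the rule, with the pair at 60 min, replicate 1, left out, 2833 did, and with the pair at 60 min, replicate 2, left out, 1494 did, of which 1149 were among the 1727. Of the 80 depleted transcripts examined by name, 15 lay above the limit of 0.6 without the last of these pairs, 10 did without the pair at 60 min, replicate 1, and 3 did without the pair at 15 min, replicate 2. The rule applied to each replicate alone kept 2501 transcripts for replicate 1 and 2866 for replicate 2. The 1022 transcripts they shared were 40.9% of the first set and 35.7% of the second.

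The level of depletion moved with the pair. Among depleted transcripts the median ratio was 0.466 and 0.710 in the replicates at 15 min, 0.548 and 0.546 at 30 min, and 0.622 and 0.419 at 60 min. Divided by the median over all eligible transcripts of the same pair, these values became 0.564 to 0.656. The pair at 15 min, replicate 2, held the most exceptions, with 195 depleted transcripts at or above 1, and the pair at 30 min, replicate 2, the fewest, with 4.

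**Figure D2:**
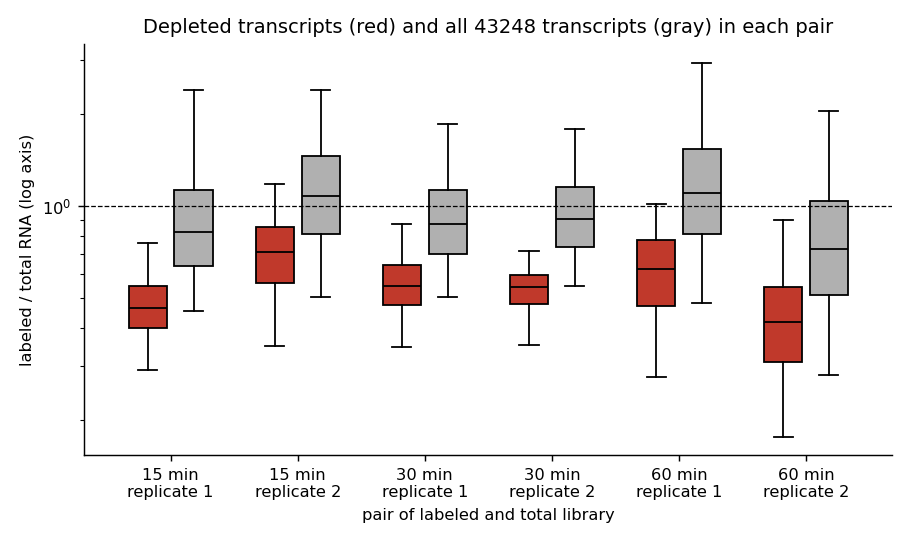
Labeled/total ratio (log axis) in each of the 6 pairs of libraries for the 1727 depleted transcripts (red) and all 43248 eligible transcripts (gray). Boxes span the quartiles with a line at the median, and whiskers reach the 5th and 95th percentiles. Both sets shift together between pairs, and the red median is below the gray one in each of the 6 pairs. The red transcripts were chosen on these ratios, so the gap is a description.

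Cytoplasmic poly(A)-binding proteins coat the tails of messenger RNAs and take part in their translation and turnover. Pabpc1 gave the most abundant depleted transcript of an annotated gene, ENSMUST00000156793, annotated as a processed transcript without a coding sequence. Its value in labeled RNA was 8639 and 11329.6 at 15 min, 9991 and 9639.7 at 30 min, and 9081 and 6755 at 60 min. In total RNA the values were 22332 and 20055 at 15 min, 20283 and 20729 at 30 min, and 18051 and 19437 at 60 min. The groups did not overlap, and the means were 9239 ± 1527 (SD, n = 6) and 20148 ± 1417 (SD, n = 6), a ratio of 0.459. The single-exon Pabpc2 transcript was at 0.447, with 161 to 223 in labeled and 391.9 to 476 in total RNA, and 1 of 6 transcripts of Pabpc4 was depleted, at 0.594. That Pabpc4 transcript was at 0.652, above the limit of 0.6, without the pair at 60 min, replicate 2. Of 15 eligible transcripts of this family 5 were depleted (33.3%), 3 of them of Pabpc1, beside 3.99% of all eligible transcripts. The ratios of the 15 ran from 0.447 to 0.811. This family, the 14-3-3 proteins, the nuclear transport receptors and the 7SK and RNase MRP RNAs were grouped after their values had been seen.

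The 14-3-3 proteins bind phosphorylated partners and regulate signaling. Ywhaz, the zeta member, had all 7 of its eligible transcripts among the depleted, with ratios of 0.470 to 0.549. Its most abundant transcript ranged from 2104 through a median of 2819 to 3620 in labeled RNA and from 4250.2 through 5634 to 6528 in total RNA, so that the groups did not overlap (ratio 0.512). A transcript of Ywhae, the epsilon member, annotated as a retained intron, reached 2565 ± 355 (SD, n = 6) in labeled and 5197 ± 293 (SD, n = 6) in total RNA, a ratio of 0.494. Only these 2 of 6 measured 14-3-3 genes had depleted transcripts, 11 of 27 (40.7%), beside 3.99% of all eligible transcripts. Ywhaz gave 7 of the 11, and the highest ratio in the family was 1.71.

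Nuclear transport receptors carry proteins and RNAs through nuclear pores. Of their 135 eligible transcripts, 22 were depleted (16.3%), from 8 of 23 genes, beside 3.99% of all eligible transcripts. The median ratio of the group was 0.724, and Xpo1 alone gave 6 of the 22. Tnpo1, transportin 1, an import receptor, had the lowest ratio of the group. Its labeled values ran from 252 to 399 with a median of 341, its total values from 691 to 953 with a median of 806, and the ratio was 0.406. Xpo1, the main export receptor for proteins with a leucine-rich signal, was at 0.518. Cse1l, which returns importin alpha to the cytoplasm, was at 0.562 in its most abundant depleted transcript, and Kpnb1, importin beta, at 0.588. Of 12 Cse1l transcripts 3 were depleted, and others reached 0.887. Its most abundant depleted one was at 0.620, above the limit of 0.6, without the pair at 60 min, replicate 2.

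Actin makes the microfilaments of the cytoskeleton. Each of the 8 eligible transcripts of Actb was depleted, with ratios from 0.413 to 0.570. The longest, with 1920 bases, had labeled values of 1122, 1458 and 1030.0 in replicate 1 and 1661, 1314 and 1193 in replicate 2 at 15, 30 and 60 min. Its total values were 3235, 2621 and 2553 in replicate 1 and 2693, 2701 and 2775 in replicate 2, all above the labeled ones. For Actg1, the other cytoplasmic actin, 2 of 9 transcripts were depleted, the more abundant at 0.577, and the ratios of the 9 reached 0.810. The more abundant was at 0.652, above the limit of 0.6, without the pair at 60 min, replicate 1. For Pfn1, the actin-binding profilin 1, 1 of 2 transcripts was depleted, at 0.510, and the gene sum was at 0.599. Among the actin, tubulin and actin-binding genes, 11 of 43 eligible transcripts were depleted (25.6%), from 3 of 15 genes. Actb gave 8 of these 11, and the share over all eligible transcripts was 3.99%.

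**Figure D3:**
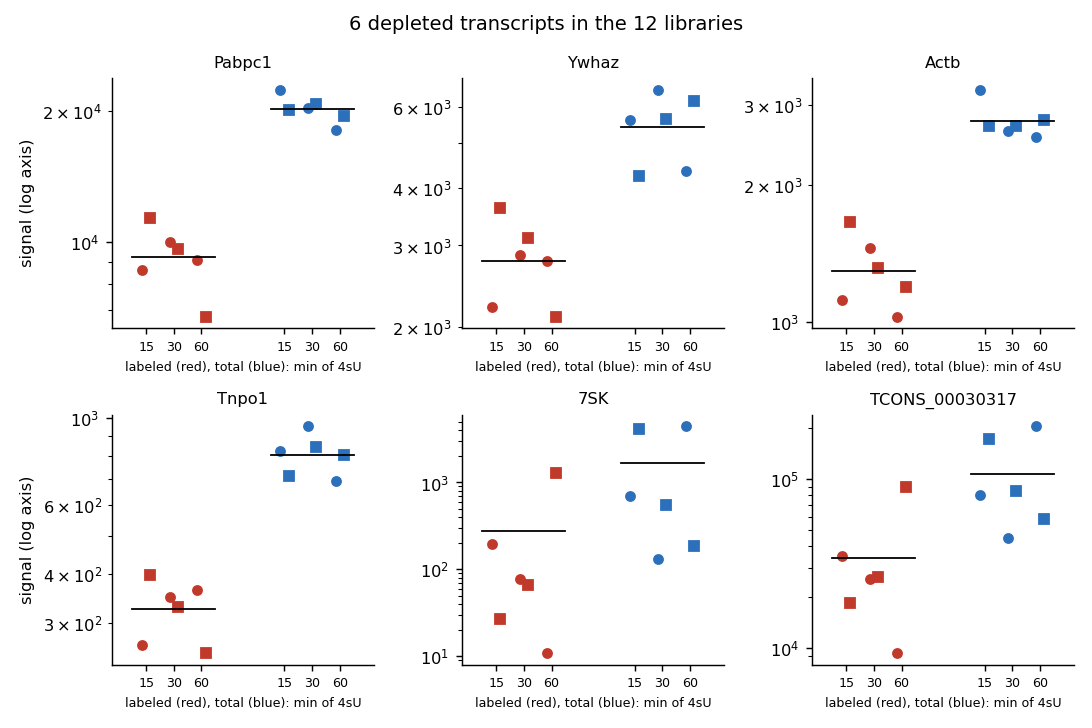
Deposited signal (log axis, a range of its own in each panel) of 6 depleted transcripts in labeled (red) and total RNA (blue) after 15, 30 and 60 min of 4sU. Circles are replicate 1, squares replicate 2, and lines the mean of 6 libraries. Labeled and total values are separate for Pabpc1, Ywhaz, Actb and Tnpo1 and overlap for 7SK and TCONS_00030317.

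Factors and partners of translation had 18 depleted transcripts of 199 (9.05%), from 5 of 38 genes, beside 3.99% of all eligible transcripts. The median ratio of the group was 0.850. Besides Pabpc1, they included Eif2s3x, the X-linked gamma subunit of the initiation factor that delivers the initiator tRNA, at 0.491. A transcript of Eef1g, a subunit of the elongation factor 1 complex, 1 of 6, was at 0.578, and the ratios of the 6 reached 0.936. That transcript was at 0.636, above the limit of 0.6, without the pair at 60 min, replicate 2. Eif4g1, the scaffold of the cap-binding complex, had 10 depleted transcripts of 22, with ratios from 0.515 to 0.901 across the 22.

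Chaperones, glycolytic enzymes and proteasome subunits did not exceed the 3.99% of all eligible transcripts that were depleted. Chaperones had 5 depleted transcripts of 139 (3.60%), from 3 genes. Ptges3, the p23 co-chaperone of Hsp90, had labeled values of 1358 to 2060.3 and total values of 3395 to 3853, and a ratio of 0.448. A transcript of Canx, the calnexin of the endoplasmic reticulum, was at 0.543, and 1 of Pdia3, a disulfide isomerase of the same compartment, at 0.534. Glycolytic enzymes had 3 of 80 (3.75%), with Pgam1, a phosphoglycerate mutase, at 0.563, Aldoa, an aldolase, at 0.595 and Gpi1, the glucose-6-phosphate isomerase, just inside the limit. Proteasome subunits had 4 of 147 (2.72%), from Psmd1, whose transcript was at 0.595, and Psmd11 at 0.587. These were the values of single transcripts, 1 of 4 eligible ones of Canx, 1 of 4 of Pdia3, whose total mean was 39.9, 1 of 10 of Aldoa, 1 of 4 of Gpi1, 1 of 7 of Psmd1 and 3 of 15 of Psmd11. Other transcripts reached 0.633 in Canx, 0.809 in Pdia3, 0.729 in Aldoa, 0.848 in Gpi1 and 1.15 in Psmd11. Without the pair at 60 min, replicate 2, the ratios of Pgam1, Aldoa and Gpi1 were 0.603, 0.677 and 0.646 and that of Psmd1 was 0.668, all above the limit.

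Of 24 embryonic stem cell markers, all of which had eligible transcripts, only Lin28a had a depleted one, 1 of 66 transcripts. In a group this small that count says little, beside 3.99% of all eligible transcripts. Lin28a, an RNA-binding protein that blocks the maturation of let-7, had a ratio of 0.448, with 294 to 490 in labeled and 757 to 1068 in total RNA. Markers of primitive endoderm, trophectoderm and fibroblast feeders had 1 eligible gene each, Lama1, Ascl2 and Thy1, and no depleted transcript. Genes of the Zfp zinc finger series had 8 of 634 (1.26%), from 5 of 241 genes, against 3.99% of all eligible transcripts. The median ratio of the group was 1.13. Single transcripts of Zfp106 were at 0.574, of Zfp957 at 0.558, and of Zfp451 and Zfp644 at 0.578. In Zfp106, 2 of 11 transcripts were depleted and others reached 0.834, and in Zfp644 1 of 16 was and others reached 1.41. Without the pair at 60 min, replicate 2, Zfp106, Zfp451 and Zfp644 were at 0.634, 0.614 and 0.644, above the limit. Zfp957 was at 0.606 without the pair at 60 min, replicate 1.

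No transcript was depleted among 63 of replication-dependent histones (median 0.881) or 53 of peroxide and redox defence genes (median 0.925). With 3.99% depleted among all eligible transcripts, none in groups this small says little. The mitochondrially encoded proteins had no eligible transcript. None of the 38 transcripts of small nucleolar RNA host genes was depleted, and 31 of them were enriched, with Gas5 at 1.79. Of 25 small nucleolar and Cajal body RNAs, 20 were enriched and none was depleted. Over all 43248 eligible transcripts, 2020 were enriched.

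**Figure D4:**
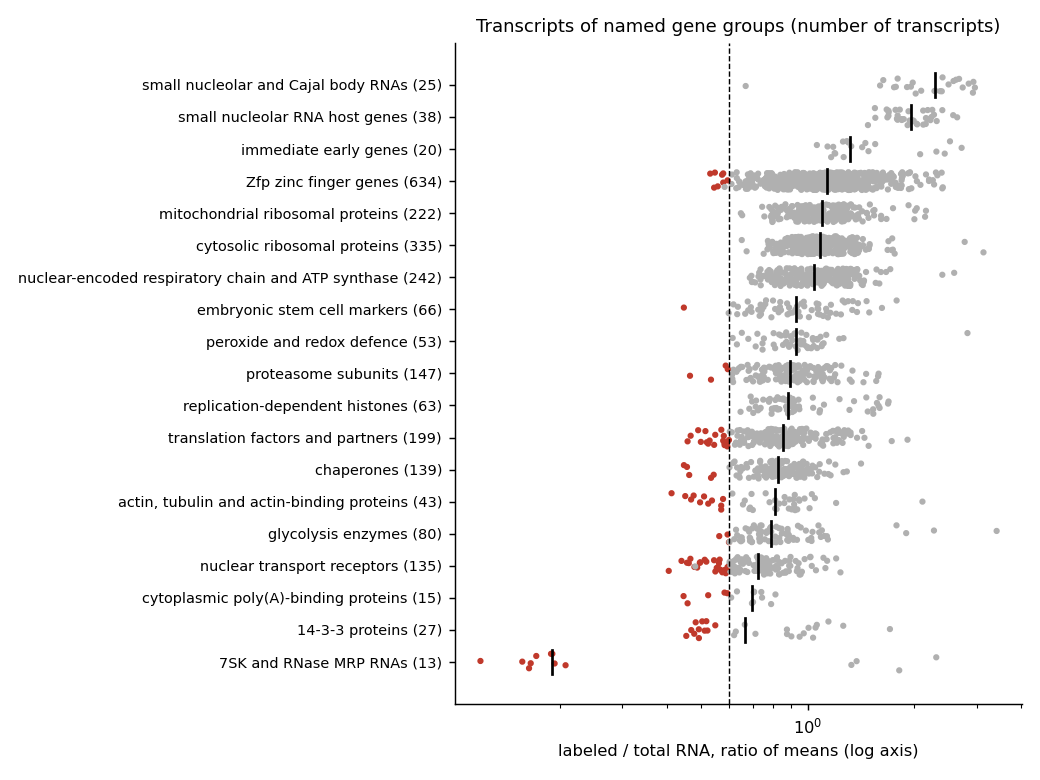
Labeled/total ratio (log axis) of each eligible transcript in the gene groups with at least 10 transcripts, with the number of transcripts in parentheses. Red points are depleted transcripts, black bars the median of a group and the dashed line the limit of 0.6. The groups run from 7SK and RNase MRP, with a median of 0.191, to small nucleolar and Cajal body RNAs, with a median of 2.29, and ribosomal proteins have no red point. Whether the 7SK loci share reads was not tested.

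The most abundant depleted transcripts of other genes were a processed pseudogene, Gm16580 (ratio 0.493, 6463 ± 721 in labeled and 13117 ± 870.2 in total RNA, SD, n = 6), Caprin1, a partner of G3bp in RNA granules (0.542), Anp32b, an acidic nuclear phosphoprotein (0.573), its pseudogene copy Anp32b-ps1 (0.546), the pseudogene Gm9769 (0.451) and Gm5263 (0.594). Reads of a processed pseudogene and of its parent messenger are hard to tell apart, so the values of these 3 copies are uncertain. Pseudogenes made up 6.11% of depleted and 6.62% of eligible transcripts with a GENCODE M1 entry. Retained-intron and processed-transcript models of Caprin1, Glud1, which makes glutamate dehydrogenase, and Tnks2, a poly(ADP-ribose) polymerase, were among the most abundant depleted transcripts without a coding sequence, at 0.507, 0.548 and 0.593.

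Among transcripts of protein-coding genes with a mean of at least 100 in total RNA, the lowest ratio belonged to Rod1, a polypyrimidine tract-binding protein (0.380). Its labeled values were 142 and 212 at 15 min, 196 and 209 at 30 min, and 195 and 111 at 60 min. Its total values were 471 and 399 at 15 min, 504 and 543 at 30 min, and 406 and 475 at 60 min, with no overlap between the groups. Others among the 10 lowest were Rps6ka6, a kinase of the ribosomal S6 kinase family (0.393), Tnpo1, Fubp3, which binds single-stranded nucleic acids (0.406), a 401-base Actb transcript (0.413), Kif2a, a microtubule-depolymerising kinesin (0.425), Ubap2 (0.431), Lmnb1, lamin B1 (0.435), and Phf6, a PHD finger protein (0.436). In single pairs the ratio of Phf6 ran from 0.277 to 0.759 and that of Rod1 from 0.234 to 0.531.

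The lowest ratios belonged to noncoding RNAs that also varied widely between libraries. 7SK, made by RNA polymerase III, holds the elongation factor P-TEFb in an inactive complex, and RNase MRP is the RNA of a nucleolar ribonuclease. Together they gave 9 depleted transcripts of 13 (69.2%), beside 3.99% of all eligible transcripts. The ratios of the 9 were 0.120 to 0.208, and 1 other transcript was enriched, at 2.30. Apart from RNase MRP, the 9 were 7SK loci on different chromosomes. Whether these loci are copies that share reads was not tested, so their values may not be independent. The most abundant 7SK locus (ENSMUST00000083103) had 707 and 4098 in total RNA at 15 min, 132 and 547 at 30 min, and 4406 and 186 at 60 min. In labeled RNA it had 195 and 27.0 at 15 min, 77.9 and 65.5 at 30 min, and 10.8 and 1275 at 60 min. The libraries with most 7SK were thus total RNA at 15 min, replicate 2, and at 60 min, replicate 1, and labeled RNA at 60 min, replicate 2, and the groups overlapped. Its ratio of 0.164 fell to 0.0380 without the pair at 60 min, replicate 2, and was 0.289 without the pair at 60 min, replicate 1. RNase MRP (ratio 0.120) peaked in the same 3 libraries, with 260, 243 and 44.3, and its ratio without the pair at 60 min, replicate 2, was 0.0562.

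The same libraries were high for 7 transcripts named only by TCONS numbers, whose means over total RNA lay between 39886 and 107616 and whose ratios lay between 0.220 and 0.346. TCONS_00030317 had 80959 and 172648 in total RNA at 15 min, 44830 and 85299 at 30 min, and 204119 and 57840 at 60 min. Its labeled values were 34948 and 18474 at 15 min, 25826 and 26375 at 30 min, and 9356 and 89451 at 60 min, so that the groups overlapped (ratio 0.317). TCONS_00014229 did not overlap, with 7063 to 24993 in labeled and 34257 to 114551 in total RNA (ratio 0.220). Together the 7 took 0.833% ± 0.550 (SD, n = 6) of labeled signal and 2.97% ± 1.63 (SD, n = 6) of total signal. The other 14 depleted TCONS transcripts had means of 27.2 to 176 in total RNA. In all, 21 of 2265 eligible TCONS transcripts were depleted, a smaller share than the 3.99% of all eligible transcripts.

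Lars2, the mitochondrial leucyl-tRNA synthetase, was among the most abundant annotated depleted genes and was high in the same libraries. It had 6417 and 27731 in total RNA at 15 min, 2393 and 5707 at 30 min, and 23177 and 2755 at 60 min. Its labeled values were 5927 and 858 at 15 min, 2032 and 2060 at 30 min, and 473 and 18668 at 60 min. The groups overlapped, and the ratio of 0.440 became 0.173 without the pair at 60 min, replicate 2, 0.656 without the pair at 60 min, replicate 1, and 0.721 without the pair at 15 min, replicate 2. Whether 7SK, RNase MRP, the TCONS transcripts and Lars2 share a cause was not tested.

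The 1727 depleted transcripts together gave 2.79% ± 0.448 (SD, n = 6) of the labeled signal, against 6.66% ± 1.56 (SD, n = 6) of the total signal. Without the 7 abundant TCONS transcripts the shares were 1.96% ± 0.230 (SD, n = 6) and 3.69% ± 0.121 (SD, n = 6), so that these 7 gave most of the spread in total RNA.

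The 1359 depleted transcripts with a GENCODE M1 entry belonged to 716 of 11910 eligible genes (6.01%). In 205 genes the depleted transcript was the only eligible one, in 49 genes each of 2 or more eligible transcripts was depleted, and in 462 genes some were and some were not, 261 of these with a single depleted transcript. The genes with the most depleted transcripts were as follows. Ctnnd1, the p120 catenin of cell junctions, had 24 depleted transcripts of 28, with ratios of 0.488 to 0.637 across the 28. Gtf2i, a general transcription factor, had 12 of 23, Tcf7l2, a Wnt pathway transcription factor, 12 of 22, Abi1, a regulator of actin assembly, 11 of 14, Rod1 11 of 13, and Dnmt3b, a de novo DNA methyltransferase, 9 of 12. Mta1, a subunit of the NuRD complex, had all 8, at 0.472 to 0.558. Isoforms of a gene share exons, so that their values are not independent.

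When the transcripts of each gene were summed, 364 of 13218 genes (2.75%) met the same rule, and 342 of them had a depleted transcript. The most abundant were Pabpc1 (0.547), Ywhae (0.539), Caprin1 (0.577), Ctnnd1 (0.563), Rtn4, a membrane protein of the endoplasmic reticulum (0.543), Ywhaz (0.492) and Actb (0.498). Suz12, a subunit of Polycomb repressive complex 2, was at 0.594.

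In 6 genes a depleted and an enriched transcript stood side by side. Fstl1, a secreted glycoprotein, had a coding transcript at 0.593 and a processed transcript at 1.83. Ogdh, a subunit of the oxoglutarate dehydrogenase complex, had a coding transcript at 0.570 and a retained-intron transcript at 1.69. Ucp2, a carrier of the inner mitochondrial membrane, had a processed transcript at 0.593 and a retained-intron transcript at 1.96, and Chd8, a chromatin remodeler, had the same types at 0.508 and 1.70. Srp72, a subunit of the signal recognition particle, had retained-intron transcripts at 0.576 and 2.20. The depleted Ucp2 transcript was at 0.650, above the limit of 0.6, without the pair at 60 min, replicate 2. Those of Fstl1 and Srp72 were at 0.601 and 0.657 without the pair at 15 min, replicate 2. In these 5 examples the enriched transcript was always one without a coding sequence.

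By type, 59.4% of annotated depleted transcripts were protein-coding, 16.3% processed transcripts and 11.7% retained introns, against 56.8%, 14.1% and 15.3% of eligible transcripts. Among enriched transcripts the shares were 31.1%, 19.9% and 24.8%. Of 86 eligible lincRNAs 6 were depleted, so that lincRNAs made up 0.442% of depleted and 0.259% of eligible transcripts, and 1 transcript of miRNA type was depleted, AL669855.1 (0.547). The lincRNAs Gm8464 and Gm4750, both single-exon models of 2200 bases on the X chromosome, had nearly the same ratio, 0.529 and 0.530. Their total values were 852 ± 92.9 and 679 ± 76.7 (SD, n = 6). Whether they are copies that share reads was not tested, so their values may not be independent. Each of these genes had 2 depleted transcripts, so the share of lincRNAs may rest on few genes.

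Introns of the same genes behaved differently from their exons. Intron values in all 12 libraries were present for 1392 depleted transcripts, and the median labeled/total ratio of those introns was 1.44. The ratio was above 1 for 1324 of them (95.1%), beside 97.5% of eligible and 98.8% of enriched transcripts. An intron ratio above 1 was therefore not particular to the depleted transcripts. The median was 1.66 over 33070 eligible transcripts and 2.21 over 841 enriched ones. In total RNA the intron value was 7.42% of the exon value in the median depleted transcript, 14.1% in the median eligible and 37.8% in the median enriched one. The intron ratio depended on the pair and was 2.35 and 0.815 in the replicates at 15 min, 0.920 and 1.26 at 30 min, and 2.37 and 0.692 at 60 min, and was lowest in the 2 pairs whose labeled library had the smallest share of introns. These values come from the libraries that chose the members and carry no test.

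Depleted protein-coding transcripts were longer than others. Their median spliced length was 3252 bases, against 2221 in the 18885 eligible coding transcripts and 1759 in the 285 enriched ones, and they had a median of 11 exons against 8 and 4. The median 3′ UTR was 1079 bases against 530 in eligible and 546 in enriched transcripts, and the median coding sequence 1428 against 1119 and 678. Ribosomal protein transcripts had a median length of 672 bases. In the longest decile of coding transcripts 8.26% were depleted, and in the decile with the longest 3′ UTRs 9.26% were, beside 4.27% of all coding transcripts.

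They also held more U, and hence more sites for 4sU. The median share of U was 25.8% in depleted, 24.2% in eligible and 24.2% in enriched transcripts, and 21.6% in those of ribosomal proteins. The coding sequences differed little, with 22.4% in depleted and 22.0% in eligible transcripts, and the 3′ UTRs more, with 32.6% and 29.9%. The median depleted coding transcript held 804 U, against 532 in the median eligible one. In the decile with the highest share of U 10.9% of transcripts were depleted. When coding transcripts were split at the median of each measure, 6.74% of the long and U-rich were depleted, 3.82% of the long and U-poor, 2.97% of the short and U-rich and 2.99% of the short and U-poor. Abundance moved with the share as well, from 2.01% in the decile with the lowest values in total RNA to 7.99% in the decile with the highest. The part of length, U and abundance in the depletion was not tested.

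**Figure D5:**
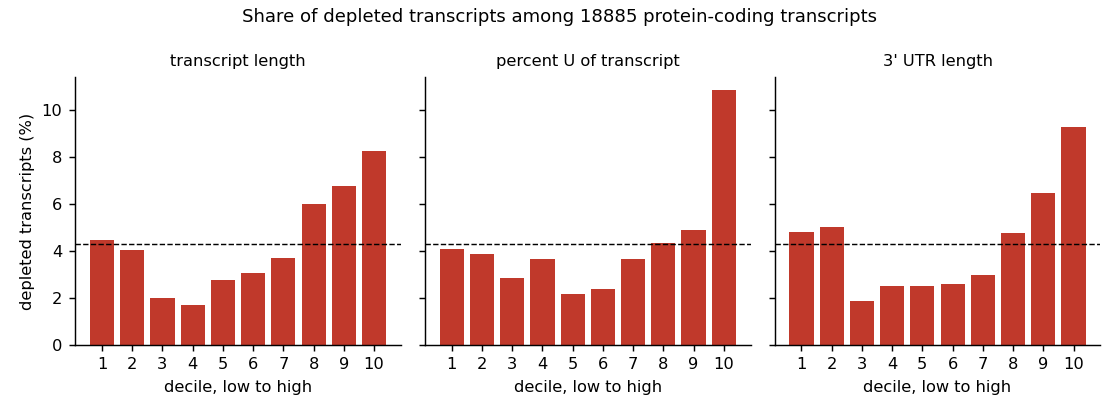
Percent of depleted transcripts in deciles of 18885 protein-coding transcripts ordered by transcript length, share of U and length of the 3′ UTR. Dashed lines mark 4.27%, the share among all of them. The last decile is the highest in each panel, at 8.26%, 10.9% and 9.26%, and deciles in the middle lie below the line.

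Position in the genome was looked at for chromosomes X, 7, 2 and 4 only, with isoforms of a gene counted singly. The X chromosome carried 118 depleted transcripts of 61 genes, 8.68% of the annotated depleted transcripts and 5.24% of the eligible ones, whereas chromosome 7 carried 3.38% and 6.89%. Chromosome 2 carried 13.5% and 11.3%, and chromosome 4 carried 10.1% and 8.63%. Differences between chromosomes were not tested.

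The libraries of all 3 times entered the means that chose the transcripts, so counts of depleted transcripts that differed with time are a description and not independent of the choice. A longer pulse gives slowly renewed RNAs more time to gain label, so values at 60 min were compared with those at 15 min within labeled RNA, within total RNA, and for the difference between both changes. None of the 1727 depleted transcripts passed an adjusted p of 0.05 by limma with Benjamini-Hochberg adjustment over the 43248 transcripts in any of the 3 comparisons, and 0% of all transcripts did. In labeled RNA, 79 depleted transcripts (4.57%) had an unadjusted p under 0.05, 78 of them lower at 60 min, beside 1.11% of all transcripts. Single libraries moved this count, for depleted and for all transcripts alike. Without labeled RNA at 60 min, replicate 1, the median log2 change was -0.46 in depleted and -0.32 in all transcripts. Without labeled RNA at 15 min, replicate 1, it was -0.45 and -0.22. When only the labeled libraries compared were fitted, 0 depleted transcripts were higher and 9 lower at this unadjusted p, against 5 and 36 of all transcripts. In total RNA 6 depleted transcripts had an unadjusted p under 0.05, 3 in each direction, beside 0.599% of all transcripts. Without total RNA at 60 min, replicate 1, the median change there was 0.0029 in depleted and 0.077 in all transcripts. For the difference 23 depleted transcripts did, 21 of them negative, beside 0.856% of all transcripts. Its median without labeled RNA at 60 min, replicate 1, was -0.37 in depleted and -0.30 in all transcripts. With the compared libraries alone, 0 depleted transcripts were positive and 9 negative, against 52 and 85 of all transcripts. The limma fit without labeled RNA at 60 min, replicate 1, called 3 of the 43248 transcripts in labeled RNA and 3 for the difference, none of them depleted.

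The median change of depleted transcripts from 15 to 60 min in labeled RNA was -0.24 on the log2(value + 1) scale, with 281 higher and 1446 lower, beside -0.11 over all transcripts. The replicates differed in direction, with a median of 0.17 in replicate 1 and -0.66 in replicate 2. In total RNA the median was -0.090, against -0.020 over all, and for the difference it was -0.16, against -0.091 over all. Without labeled RNA at 60 min, replicate 2, the median in labeled RNA was -0.024 and that of the difference 0.027, and without labeled RNA at 15 min, replicate 2, they were -0.039 and 0.049.

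For Pabpc1 (ENSMUST00000156793) the change in labeled RNA was -0.34 ± 0.21 (SE, limma, adjusted p = 1.00), and in total RNA it was -0.18 ± 0.21. For Lin28a it was -0.43 ± 0.23 in labeled RNA. For 7SK (ENSMUST00000083103) the estimate was 0.73 ± 2.08 in labeled and -0.91 ± 2.08 in total RNA, where the replicates lay far apart. A shift of this size between times could not be told from the spread between replicates for these 3 transcripts.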

How the data were processed

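The 12 libraries (labeled and total RNA at 15, 30 and 60 min, 2 replicates each) were grouped by the labels. Per the study's methods and processing notes, the authors removed ribosomal RNA reads with STAR 2.5.0, aligned the other reads to exonic and intronic sequences and quantified them with RSEM, with mm10 named as the build. The deposited values are a length-normalized signal that sums to between 19988800 and 19992900 per library over exons and introns. They are not counts, so the depth per library is unknown and no counting error can be given. The lowest deposited value is 1.01. Some values are missing, for a reason not given in the sources used here, and transcripts with a missing value were not eligible.

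The rule, the gene lists and the members were chosen with earlier results of these data known. Gene names and lengths came from GENCODE M1 (NCBIM37) by transcript identifier, and 1359 of the 1727 transcripts matched. No sequence was read by coordinates. Labeled against total RNA, the contrast of the rule, was not tested. Changes with time were tested with limma 3.58.1 (R 4.3.3) on log2(value + 1) with 6 group means and a mean-variance trend over all 43248 eligible transcripts, with Benjamini-Hochberg adjustment, and the code was tested on simulated data. Because 1 is added, changes of low values come out too small. Tables were handled in Python 3.11.15 with pandas 2.3.3.

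Transcripts were named by a rule. It took the 10 most abundant, the 10 lowest ratios among transcripts of coding genes with a total mean of at least 100, up to 4 genes per list, or 2 where a list had no member, the 3 on each side of the limit, up to 5 genes with a depleted and an enriched transcript, and the 5 most abundant without a coding sequence or pseudogene type. 7SK, RNase MRP, the TCONS transcripts, the noncoding genes, the genes with many depleted transcripts and the sums per gene were chosen after values were seen. Some named items and sequences are not reported here.

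The labels call the parts of the divided culture biological replicates and number every library 1 or 2, and the numbers were taken to mark these parts. Between labeled and total libraries with the same number, the correlation of deviations from the group mean was -0.18 at 15 min, 0.097 at 30 min and -0.44 at 60 min. Alternatives changed the limits, the number of pairs, the pseudocount (0.1 or 20), the filter, the centring, the trend, the replicate block and the libraries used.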

Additional observations from a re-analysis of the deposited data

Results flagged for a closer look

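In each group of 6 values, the highest or lowest was set against its nearest neighbor, and it was singled out when the gap exceeded Dixon's 95% critical value. Of 167 groups from 80 named transcripts and the shares of signal, 20 were singled out, where chance gives about 1 in 20, or 8.35, and 17 of the 20 were labeled RNA at 60 min, replicate 2. Isoforms and copies share reads, so these are not independent.

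In that library the 7 abundant TCONS transcripts took 1.88% of the signal, against 0.862% in the next library. TCONS_00030317 had 89451, TCONS_00060065 had 97980.0 and TCONS_00059158 had 75459. The 7SK loci stood at 1275, 539, 347, 713, 398, 644, 880.1 and 677, RNase MRP at 44.3 and Lars2 at 18668. In the same library Ubap2 was lowest at 88.9, Psmd1 at 607 and Kpnb1 at 861.0.

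The other 3 values were a transcript of Psmd11 at 583 in total RNA at 60 min, replicate 2, the longest Actb transcript at 3235 in total RNA at 15 min, replicate 1, and a transcript of Chd8 at 193 in labeled RNA at 15 min, replicate 2.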

How the results depend on the processing

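The number of depleted transcripts followed the limits. It was 306 with a limit of 0.5 and 5406 with 0.7, 1099 with a mean of at least 100 in total RNA, 836 when ratios were divided by their median, 3666 from the 30 min libraries alone, 3048 from the 60 min libraries alone and 364 as genes when transcripts were summed. With a replicate number or 1 pair left out it lay between 1494 and 3079, with 2866 without replicate 1, 3079 without the pair at 15 min, replicate 2, and 2833 without the pair at 60 min, replicate 1. Leaving out single pairs and crossing the numbers were chosen after seeing the data. No depleted transcript was called for a change with time in any fit tried. With the replicate block the medians stayed at -0.24 in labeled RNA, -0.090 in total RNA and -0.16 for the difference, with 0 calls in each. In that fit 67, 5 and 16 depleted transcripts had an unadjusted p under 0.05. Of all transcripts, 93 were higher and 350 lower in labeled RNA, 117 and 121 in total RNA, and 104 and 224 for the difference. With the numbers crossed at 15 and 60 min the rule kept 1829 transcripts, and a block with the numbers of total RNA at 60 min crossed, fitted for total RNA and the difference, gave 0 calls. With 1 library left out the medians ran from -0.46 to -0.024 in labeled RNA, from -0.16 to 0.0029 in total RNA and from -0.37 to 0.049 for the difference, and the library left alone in its group was assumed to vary like the other groups. The cause of these shifts was not tested. The depth of the libraries is unknown, so its effect on these values could not be assessed.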
